A study of Mus musculus with 9 samples.

Results

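Aminoacyl-tRNA synthetases were followed through 36 listed mouse genes, 20 of the cytosolic and 16 of the mitochondrial enzymes, of which 32 (17 and 15) were measured among 17097 genes. The cytosolic genes Cars, Dars and Tars and the mitochondrial gene Yars2 lacked a probe set named for them alone and are not analysed here. Each gene was read from the probe set of that gene alone with the highest mean over all arrays. Expression was measured on 1 array per sample in OVA-specific CD8+ T cells sorted from the spleens of C57BL/6 mice 9 days after Listeria monocytogenes infection. OVA is a model antigen that marks the responding cells. The 4 WT samples came from mice with floxed Tsc1 alleles and no cre. The 5 Tsc1-/- samples came from mice with the same floxed alleles and a Granzyme B-cre transgene, which acts in activated T cells that turn on the Granzyme B promoter. All mice were infected, and cre was present in every Tsc1-/- and no WT mouse, so an effect of cre and one of Tsc1 loss cannot be told apart. Whether every sample is a different animal is not in the labels, and the p-values describe the scatter of these samples, which may be technical.

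Each synthetase joins 1 amino acid to its tRNA, and the charged tRNA carries that amino acid to the ribosome. The cytosol and the mitochondria use separate sets of enzymes, nearly all encoded in the nucleus by different genes. However, Gars and Kars, counted here as cytosolic, each give rise to both forms. Several cytosolic enzymes are bound in a large multisynthetase complex with the scaffold proteins Aimp1, Aimp2 and Eef1e1. Tsc1 restrains the kinase complex mTORC1, and the transcription factor Atf4, which responds to uncharged tRNA through the kinase encoded by Eif2ak4 and is also raised by mTORC1, is known to act on many cytosolic synthetase genes. Wars, for tryptophan, is in addition a classical interferon-induced gene.

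Values are deposited log2 expression, and a difference is the Tsc1-/- mean less the WT mean, so a positive one is higher in Tsc1-/-. Tsc1 itself read between 7.56 and 7.77 on the WT arrays and between 7.27 and 7.51 on the Tsc1-/- arrays, without overlap (-0.26, SE 0.080, adjusted p = 0.114, limma), and whether its probe set lies in the deleted part was not examined. Arrays of the same genotype correlated at 0.987 to 0.991, and arrays of different genotypes at 0.982 to 0.990. The defining markers of CD8 T cells had a list mean of 11.24 to 11.33 in WT and 11.25 to 11.32 in Tsc1-/- over 9 genes. Markers of other cell types gave signal too. For 11 macrophage and monocyte markers the mean spanned 6.32 to 6.65 in Tsc1-/-, and in WT it was 6.42 on replicate 4 but 7.15 to 7.31 on the others. The dendritic cell list spanned 8.19 to 8.89 and 7.77 to 8.61, the B cell list 5.71 to 6.26 and 5.40 to 5.94, the plasma cell list 7.09 to 7.64 and 6.85 to 7.23, the CD4 T cell list 6.82 to 6.94 and 6.82 to 6.97, the erythroid list 6.66 to 7.27 and 6.34 to 7.79, and the neutrophil list 7.17 to 8.09 and 6.04 to 8.60, each in WT and then Tsc1-/-. Of the macrophage markers 10 of 11 had a negative difference, of the dendritic cell markers 8 of 8, of the B cell markers 8 of 9 and of the neutrophil markers 6 of 6. Of the plasma cell markers it was 2 of 5, of the CD4 T cell markers 2 of 4 and of the erythroid markers 2 of 3. Over all 17097 genes 8848 were negative. Among the plasma cell markers Jchain differed by -1.71, while Xbp1 differed by 0.21 and Irf4 by 0.18.

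The cytosolic and mitochondrial synthetase genes were compared between genotypes to see how their transcripts differ when Tsc1 is lost in activated CD8+ T cells. No synthetase gene passed an adjusted p under 0.05 (limma), 0 of 32 in either direction, where 0.971% of all genes (166) were called higher and 0.31% (53) lower. After centring each array on its median, those counts over all genes were 381 and 57, and Gars and Wars were then the 2 synthetase genes called higher. Under a looser limit, an adjusted p under 0.1, Wars, Gars and Rars were the 3 genes called higher, against 3.09% of all genes. With limma's unadjusted p under 0.05 there were 7 of 17 cytosolic genes with a higher mean and 0 with a lower one, against 9.83% and 7.34% of all genes. Of the 15 mitochondrial genes 0 had a higher and 1 a lower mean at that level. A fit with dim genes left out kept 8799 genes, all 17 cytosolic ones among them. There 1567 of the 8799 had a higher and 729 a lower mean at that level, and 7 and 1 of the synthetase genes. An exact two-sided permutation test of single genes, whose smallest possible p is 0.00794, was under 0.05 for 7 cytosolic genes with higher means and for 1 mitochondrial gene with a lower mean, against 9.27% of all genes with a higher and 6.78% with a lower mean. The 7 cytosolic genes by limma were Wars, Gars, Rars, Nars, Hars, Aars and Kars, and the permutation test had Mars1 in place of Aars. In both tests the mitochondrial gene was Iars2. The permutation p was at its smallest, 0.00794, for Wars, Gars, Nars and Iars2.

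Among the cytosolic genes 13 of 17 had a positive difference, with a median of 0.087 and a range of -0.12 to 0.40. Among the mitochondrial genes 5 of 15 were positive, with a median of -0.023 (0.020 after centring the arrays on their medians, where that of the cytosolic genes was 0.13) and a range of -0.19 to 0.25. After that centring the median of all genes was 0.037. With quantile normalization of the deposited values the medians were 0.069 for the cytosolic, -0.036 for the mitochondrial and 0.0062 for all genes. Over all 17097 genes 48.2% were positive and the median was -0.0063, and over the 8549 genes at or above the median level 57.6% were positive with a median of 0.034. All 17 cytosolic and 12 of 15 mitochondrial genes had a mean at or above that level of 6.34. The compartments were not matched in level, however. Above a level of 8 there were 13 of the 17 cytosolic and 0 of the 15 mitochondrial genes, and the median levels were 8.30 and 7.02. Compartment and level therefore cannot be told apart in this comparison. The array medians themselves differed by -0.043 between genotypes, so that centring moves each difference up by that amount, and medians just under 0, as those of the mitochondrial genes, of their classes and of the tRNA charging list described further on, then lie above 0. The difference between the compartments was not tested, because the genes were chosen with results of these data known.

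**Figure D1:**
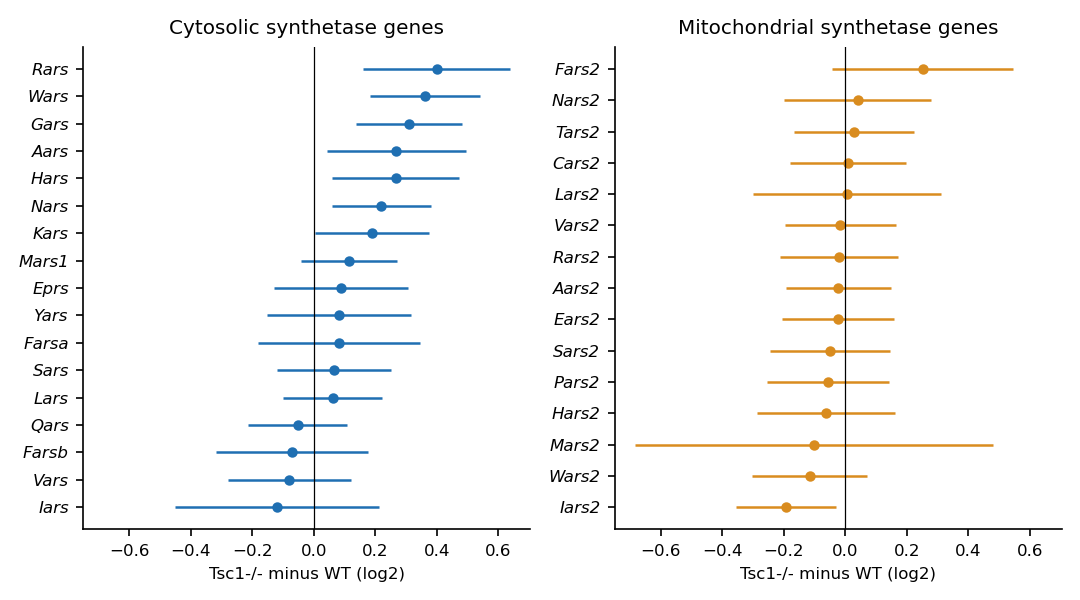
Difference of each synthetase gene, Tsc1-/- minus WT on the log2 scale, with 95% intervals from limma (n = 4 and 5), cytosolic genes at left and mitochondrial genes at right. The cytosolic points reach from -0.12 (Iars) to 0.40 (Rars), and 7 of the 17 cytosolic intervals lie above 0 while the others include it. Of the 15 mitochondrial intervals 14 include 0, all but that of Iars2.

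Wars encodes the cytosolic tryptophanyl-tRNA synthetase and had the smallest p of the 32 genes. It read 8.29, 8.29, 8.53 and 8.53 on WT replicates 1 to 4 and 8.81, 8.67, 8.83, 8.77 and 8.78 on Tsc1-/- replicates 1 to 5. WT replicates 1 and 2 were the lowest, and the lowest Tsc1-/- array was above the highest WT array. The difference was 0.36 (SE 0.083, 95% interval 0.18 to 0.54, a fold of 1.29), with an adjusted p = 0.0529 (limma). Its other probe sets differed by less, 0.17 and 0.071, and the mean of its 3 probe sets by 0.20 (adjusted p = 0.198, limma).

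Gars encodes the glycyl-tRNA synthetase of both cytosol and mitochondria. It read 9.21, 9.24, 9.22 and 9.39 in WT and 9.45, 9.67, 9.50, 9.65 and 9.61 in Tsc1-/-. The groups did not overlap, and WT replicate 4 stood above the other WT arrays. The difference was 0.31 (SE 0.080, 95% interval 0.14 to 0.48), a fold of 1.24, with an adjusted p = 0.0719 (limma). Without WT replicate 4, the array with the low macrophage marker level, Gars differed by 0.35 (adjusted p = 0.0498) and Wars by 0.40 (adjusted p = 0.040), both then past the limma threshold, and 297 genes were called higher in place of 166. Without any other single array neither passed.

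Rars encodes the arginyl-tRNA synthetase, a member of the multisynthetase complex, and had the largest difference of all 32 genes. It read 7.74, 7.90, 7.94 and 7.94 in WT and 8.56, 8.07, 8.05, 8.36 and 8.37 in Tsc1-/-. The Tsc1-/- arrays were widely spread (SD 0.22, n = 5, against 0.094, n = 4), with replicates 2 and 3 only a little above the highest WT array. The difference was 0.40 (SE 0.11, 95% interval 0.16 to 0.64), a fold of 1.32, with an adjusted p = 0.0884 (limma).

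Nars, for asparagine, was the fourth cytosolic gene whose genotypes did not overlap. Its readings were 8.91, 9.01, 9.08 and 9.09 in WT and 9.21, 9.30, 9.16, 9.32 and 9.23 in Tsc1-/-, a difference of 0.22 (SE 0.075, adjusted p = 0.152, limma). Its second probe set differed by 0.16. Genotypes did not overlap, with Tsc1-/- higher, in 4 of 17 cytosolic and 0 of 15 mitochondrial genes, against 5.08% of all genes and 9.32% of the genes at or above the median level. With Tsc1-/- lower it was 0 of 17 and 1 of 15, against 2.88%.

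Hars, for histidine, read 8.01, 8.10, 8.06 and 7.89 in WT and 8.54, 8.27, 8.29, 8.21 and 8.09 in Tsc1-/-. Only Tsc1-/- replicate 5 fell within the WT range, and the difference was 0.27 (SE 0.095, adjusted p = 0.174, limma). Aars, for alanine, read 7.99, 8.24, 8.15 and 8.27 in WT and 8.61, 8.50, 8.16, 8.32 and 8.56 in Tsc1-/-. Only Tsc1-/- replicate 3 was within the WT range, and the difference was 0.27 (SE 0.10, adjusted p = 0.213, limma). A second Aars probe set differed by 0.065. Kars, the lysyl enzyme of both compartments, differed by 0.19 (SE 0.086, 7.995 to 8.21 in WT and 8.13 to 8.44 in Tsc1-/-). Mars1, the cytosolic methionyl enzyme, differed by 0.12 (SE 0.072, 8.92 to 9.03 and 8.98 to 9.14). The adjusted p of Kars was 0.284 and that of Mars1 0.442 (limma).

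**Figure D2:**
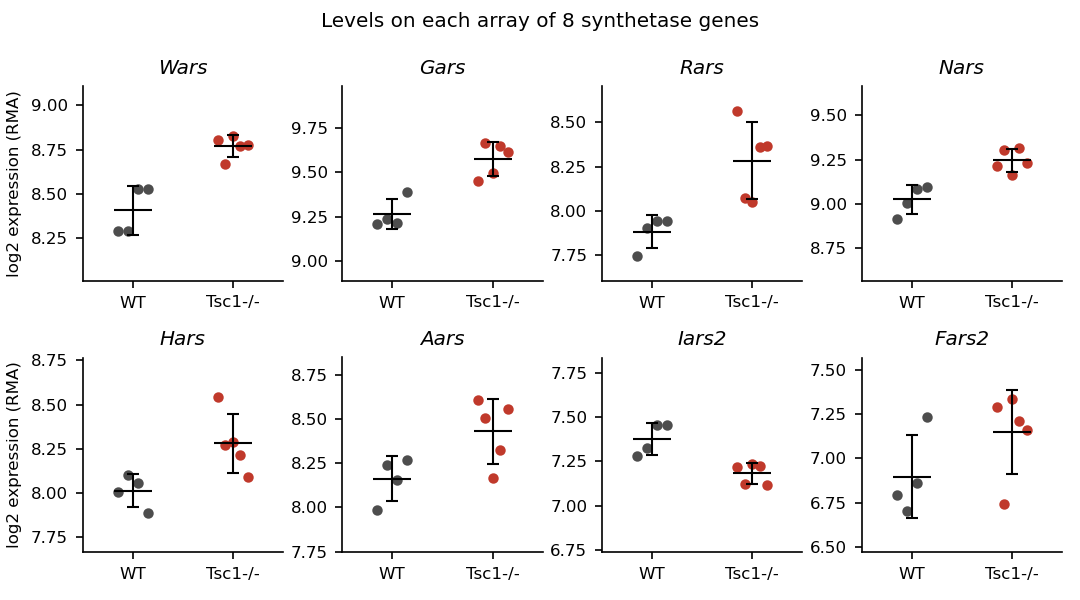
Deposited log2 expression of 8 synthetase genes on each array, WT (grey, n = 4) and Tsc1-/- (red, n = 5), with the mean and SD in black; every panel spans the same log2 range. Wars, Gars, Rars and Nars lie higher in Tsc1-/- without overlap and Iars2 lower without overlap, while Hars, Aars and Fars2 overlap.

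Because response elements for Atf4 are known in several synthetase promoters, the RefSeq promoter windows (250 bases before to 50 after a start, GRCm38.p6) were searched for TGATGNAA on both strands and for TTGCATCA, which is the case TGATGCAA read on the other strand. A window was given for 24 of the 32 measured genes, and those of Wars, Rars, Nars, Hars, Lars, Vars, Hars2 and Pars2 were not among them. TGATGNAA occurred in the windows of 4 of the 24 genes, Aars, Gars, Iars and Yars. The share over all 32851 windows, of which a gene can have more than 1, was 3.97%. The window of Kars held no match. TTGCATCA occurred in 3 of these, Aars, Iars and Yars, against 0.895% of all windows. No window of a gene counted here as mitochondrial held either, while Gars, counted as cytosolic, serves both compartments. A match says only that these letters are present. The 150 bases before the start of Aars and Gars are shown because both genes stood among the 7 above. The 30 bases around the match are shown for Iars and Yars, where it lies just after the start. All are written 5′ to 3′ on the strand of the gene (+), with the match in capitals.

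Aars, chr8:111033692-111033841: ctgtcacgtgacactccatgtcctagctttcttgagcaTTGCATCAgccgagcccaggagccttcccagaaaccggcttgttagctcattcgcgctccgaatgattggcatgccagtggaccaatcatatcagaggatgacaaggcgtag

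Gars, chr6:55037851-55038000: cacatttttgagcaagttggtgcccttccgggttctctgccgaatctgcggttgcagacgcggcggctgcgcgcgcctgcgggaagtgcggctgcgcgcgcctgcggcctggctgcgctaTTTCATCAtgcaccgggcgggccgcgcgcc

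Iars, chr13:49682126-49682155: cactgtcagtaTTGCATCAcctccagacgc

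Yars, chr4:129189895-129189924: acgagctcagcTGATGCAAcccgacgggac

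The match began 112 bases before the start in Aars, 30 before it in Gars, 7 after it in Iars and 3 after it in Yars. Aars had a second match 9 bases after the start, outside the stretch shown. The 4 genes with a match had differences of both signs. Aars and Gars differed by 0.27 and 0.31, Yars, for tyrosine, by 0.082 (SE 0.11), and Iars, for isoleucine, by -0.12 (SE 0.15).

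Iars was read by a pair of probe sets whose differences had opposite signs. Its brightest probe set read 8.92, 8.86, 8.72 and 9.27 in WT and 9.34, 8.81, 8.64, 8.62 and 8.70 in Tsc1-/-, with WT replicate 4 and Tsc1-/- replicate 1 standing above the rest. Its other probe set read 7.55, 7.88, 7.96 and 7.77 in WT and 8.40, 7.98, 7.95, 7.72 and 8.07 in Tsc1-/-, a difference of 0.23 in place of -0.12. Neither passed. Of the 16 members with several probe sets, 8 had probe sets whose differences disagreed in sign: Eprs, Farsa, Farsb, Iars and Qars among the cytosolic genes, and Hars2, Nars2 and Wars2 among the mitochondrial genes. Wars, Nars, Aars and Sars had only positive and Iars2, Ears2 and Vars2 only negative differences, and both Cars2 probe sets were slightly positive. Gars, Rars, Hars and Kars had 1 probe set each.

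**Figure D3:**
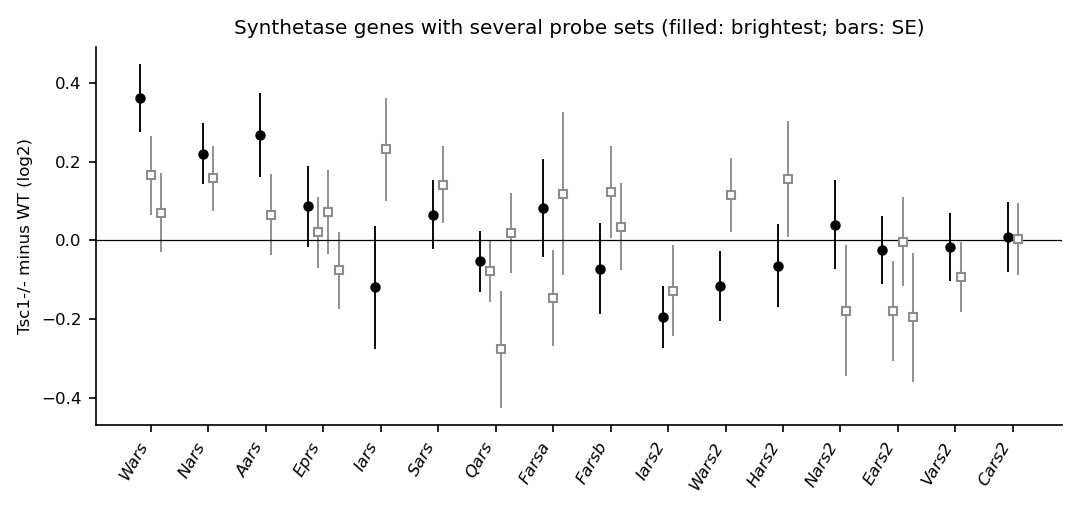
Differences, Tsc1-/- minus WT on the log2 scale with SE, for every probe set of the 16 synthetase genes that have several, from the fit over all probe sets; filled circles are the brightest probe set of a gene, open squares the others. The filled and open points of Iars, Wars2 and Hars2 lie on opposite sides of 0, while all points of Wars, Nars, Aars and Sars lie above it.

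The other cytosolic genes had differences between -0.080 and 0.087 in the probe set used, and their genotypes overlapped. Eprs, whose protein charges both glutamate and proline tRNAs, read 8.31, 8.15, 8.36 and 8.17 in WT and 8.33, 8.32, 8.18, 8.21 and 8.63 in Tsc1-/-. Only Tsc1-/- replicate 5 was above the WT range (0.087, SE 0.10), and its other probe sets differed by 0.021, 0.073 and -0.076. Lars, for leucine, differed by 0.062 (SE 0.074), with 7.96 to 8.17 in WT and 8.04 to 8.18 in Tsc1-/-.

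Sars, for serine, read 9.77, 10.00, 9.93 and 9.78 in WT and 9.77, 10.02, 9.93, 9.90 and 10.04 in Tsc1-/-. Both genotypes spanned nearly the same range (0.065, SE 0.086), and a second probe set differed by 0.14. Yars read 6.79, 7.19, 6.60 and 6.77 in WT and 6.82, 6.92, 6.95, 6.94 and 6.97 in Tsc1-/-. WT replicate 2 was the highest of all arrays, and the other WT arrays were the lowest. Vars, for valine, read 7.16, 7.13, 7.36 and 7.37 in WT and 7.14, 7.17, 7.35, 6.99 and 7.22 in Tsc1-/-. Its difference was -0.080 (SE 0.092), with Tsc1-/- replicate 4 the lowest array.

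Farsa and Farsb encode the subunits of the phenylalanyl enzyme. Farsa read 7.48, 7.69, 7.91 and 7.31 in WT and 7.84, 7.73, 7.61, 7.46 and 7.76 in Tsc1-/-. Its WT range enclosed the Tsc1-/- range (0.082, SE 0.12), and its other probe sets differed by -0.15 and 0.12. Farsb read 7.68, 7.64, 7.76 and 8.06 in WT and 7.88, 7.62, 7.72, 7.46 and 7.90 in Tsc1-/-. WT replicate 4 was the highest array (-0.071, SE 0.11), and the other probe sets differed by 0.12 and 0.035. Qars, for glutamine, read 10.26, 10.25, 10.26 and 10.45 in WT and 10.22, 10.26, 10.30, 10.18 and 10.29 in Tsc1-/-. WT replicate 4 stood above all others (-0.053, SE 0.075). The probe set is of the x type, which can detect related transcripts, and the others differed by -0.077, -0.28 and 0.019.

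By structural class, 6 of 9 cytosolic class I genes and 7 of 8 cytosolic class II genes had a positive difference, with medians of 0.082 and 0.20. Class I synthetases share one fold of the catalytic domain and class II synthetases another. The mitochondrial genes of class I and class II had medians of -0.023 and -0.023, above 0 after centring, with 2 of 8 and 3 of 7 positive. Of the multisynthetase complex enzymes 5 of 7 were positive, with a median of 0.087, and of the cytosolic enzymes outside it 8 of 10, with a median of 0.15. None of these groups held a called gene, and their differences from each other were not tested.

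Among the mitochondrial genes, Iars2, the mitochondrial isoleucyl enzyme, had the smallest p. It read 7.28, 7.32, 7.46 and 7.45 in WT and 7.22, 7.12, 7.24, 7.22 and 7.12 in Tsc1-/-, so that the highest Tsc1-/- array was below the lowest WT array. The difference was -0.19 (SE 0.075, 95% interval -0.36 to -0.032, a fold of 0.874), with an adjusted p = 0.206 (limma). A dim second probe set differed by -0.13.

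Fars2, the mitochondrial phenylalanyl enzyme, was the only mitochondrial gene with a difference above 0.05. It read 6.79, 6.70, 6.86 and 7.23 in WT and 7.29, 6.74, 7.34, 7.21 and 7.16 in Tsc1-/-. WT replicate 4 lay among the Tsc1-/- arrays and Tsc1-/- replicate 2 among the WT arrays, and the difference was 0.25 (SE 0.14, adjusted p = 0.369, limma). It was -0.053 when the fit also held the macrophage marker level as a covariate. Its only probe set is of the x type.

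Wars2, the mitochondrial partner of Wars, read 6.80, 6.91, 6.88 and 6.99 in WT and 6.75, 6.65, 6.79, 6.70 and 7.00 in Tsc1-/-. All but Tsc1-/- replicate 5 were below the WT range (-0.12, SE 0.086), but its other probe set differed by 0.12. Pars2, for proline, read 6.82, 6.41, 6.48 and 6.65 in WT and 6.55, 6.61, 6.47, 6.49 and 6.55 in Tsc1-/-. WT replicate 1 was the highest array, and the difference was -0.057 (SE 0.092). Hars2, the partner of Hars, read 6.71, 6.82, 6.56 and 6.67 in WT and 6.46, 6.83, 6.81, 6.42 and 6.60 in Tsc1-/-. Tsc1-/- replicates 1 and 4 were the lowest (-0.064, SE 0.10), and its second probe set differed by 0.16.

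The dimmest member, and the least precise, was Mars2, for methionine, at 5.12, 4.45, 4.02 and 4.98 in WT and 4.01, 4.24, 5.39, 4.46 and 4.61 in Tsc1-/-. Its interval ran from -0.68 to 0.48 around -0.10. Ears2, which charges mitochondrial tRNAs with glutamate, read 6.14, 5.85, 6.20 and 6.01 in WT and 6.06, 6.03, 5.99, 5.98 and 6.07 in Tsc1-/-. The WT arrays were spread on both sides of the Tsc1-/- arrays (-0.024, SE 0.084). Nars2, for asparagine, read 6.16, 5.84, 5.96 and 6.27 in WT and 6.24, 6.02, 5.87, 6.26 and 6.08 in Tsc1-/-. The difference was 0.040 (SE 0.11), and its other probe set differed by -0.18.

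Cars2, for cysteine, read 7.55, 7.62, 7.59 and 7.50 in WT and 7.56, 7.77, 7.51, 7.38 and 7.64 in Tsc1-/-. The Tsc1-/- range enclosed the WT range (0.0087, SE 0.087). Rars2, the partner of Rars, read 7.61, 7.53, 7.45 and 7.44 in WT and 7.39, 7.41, 7.62, 7.36 and 7.66 in Tsc1-/-. It likewise had the wider range in Tsc1-/- (-0.022, SE 0.089). Sars2 differed by -0.050, Tars2 by 0.028, Lars2 by 0.0056, Aars2 by -0.023 and Vars2 by -0.017, with overlapping genotypes. Differences this near 0 turned sign under other settings, as did those of Farsb, Iars, Hars2 and Nars2 with the mean of all their probe sets. The SE of a mitochondrial gene was between 0.075 and 0.27.

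By array, the median deviation of the 17 cytosolic genes from their own means over the 9 arrays was -0.14, -0.081, -0.066 and -0.053 on WT replicates 1 to 4. It was 0.11, 0.058, 0.026, -0.0041 and 0.12 on Tsc1-/- replicates 1 to 5, so that every WT median was the lower one. Between 3 and 5 of the 17 genes were above their own mean on a WT array and between 8 and 14 on a Tsc1-/- array. The mean level of the 17 genes was 8.32 to 8.45 in WT and 8.45 to 8.59 in Tsc1-/-, and WT replicate 4 (8.447) and Tsc1-/- replicate 4 (8.448) were almost equal. The 15 mitochondrial genes had means of 6.68 to 6.80 in both genotypes, and their median deviation ran from -0.031 to 0.037 in WT and from -0.072 to 0.025 in Tsc1-/-. The median deviation of all genes stayed between -0.0071 and 0.018 on every array.

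**Figure D4:**
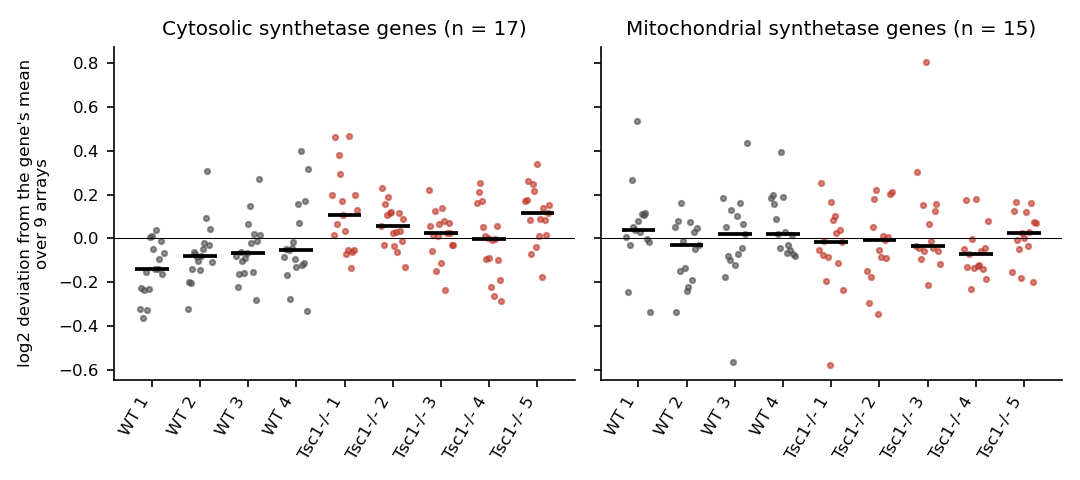
Deviation of each synthetase gene from its own mean over the 9 arrays (log2), by array, with a point per gene and a black bar at the median. The cytosolic medians lie between -0.14 and -0.053 on the WT arrays and between -0.0041 and 0.12 on the Tsc1-/- arrays, while the mitochondrial medians of the genotypes overlap.

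The macrophage marker level moved with genotype beside these values, with a WT mean of 7.01 (SD 0.40, n = 4) and a Tsc1-/- mean of 6.496 (SD 0.14, n = 5). By limma 0 of the 11 markers were called, and 7 were lower at an unadjusted p under 0.05, against 7.34% of all genes. In a sorted population, fewer cells of a type and less RNA per cell cannot be told apart. With that level as a covariate, Wars differed by 0.25, Gars by 0.21 and Rars by 0.32 (adjusted p = 0.49, 0.562 and 0.538, limma), and the median of the cytosolic genes was 0.16 in place of 0.087. Over all settings run, the adjusted p of limma lay between 0.0199 and 0.49 for Wars, between 0.0224 and 0.562 for Gars and between 0.0435 and 0.538 for Rars. In the fit with the covariate Nars differed by 0.16, Hars by 0.41 and Iars2 by -0.26. Of the WT arrays only replicate 4 (6.42) had a marker level within the Tsc1-/- range (6.32 to 6.65). The fit can therefore hardly separate the part of other cells in these values from genotype, and that part was not tested.

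Genes that work beside the synthetases were taken from 5 lists, and limma called 0 of them. Of the 3 scaffold genes of the multisynthetase complex, Aimp2 had the largest difference. It read 7.19, 7.12, 7.37 and 7.36 in WT and 8.13, 7.54, 7.74, 7.66 and 7.67 in Tsc1-/-, without overlap and with replicate 1 far above the others (0.49, SE 0.12, adjusted p = 0.0571, limma). Eef1e1 differed by 0.32 (SE 0.13, adjusted p = 0.228, limma), with 7.04 to 7.60 in WT and 7.35 to 7.93 in Tsc1-/-. Aimp1 differed by -0.059 (SE 0.10). By limma's unadjusted p under 0.05, 2 of the 3 were higher, against 9.83% of all genes. Genotypes did not overlap, with Tsc1-/- higher, in 1 of the 3, against 5.08%.

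Among 13 measured genes of tRNA charging and its quality control, 6 were positive, the median was -0.041 (above 0 after centring) and 0 passed limma. At an unadjusted p under 0.05, 1 was higher and 1 lower, against 9.83% and 7.34% of all genes. Genotypes did not overlap in 1 higher and 1 lower gene, against 5.08% and 2.88%. Prorsd1, which resembles the editing domain that clears mischarged prolyl tRNA, read 7.25, 7.18, 7.14 and 7.31 in WT and 7.58, 7.47, 7.52, 7.45 and 7.87 in Tsc1-/-. Its groups did not overlap (0.36, SE 0.095, adjusted p = 0.0784, limma). Tarsl2, a threonyl synthetase related to Tars, was lower on every Tsc1-/- array, at 5.11 to 5.34 against 5.43 to 5.55 (-0.31, SE 0.077, adjusted p = 0.0703, limma). Gatb, a subunit of the amidotransferase that turns glutamate charged by Ears2 into glutamine, differed by -0.21 (SE 0.10).

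Of 23 measured genes on the list of other Atf4 targets, Atf4 itself included, 14 were positive and 9 negative, with a median of 0.15. By limma 0 were called, while at an unadjusted p under 0.05 there were 7 positive and 1 negative, against 9.83% and 7.34% of all genes. Genotypes did not overlap, with Tsc1-/- higher, in 1 of the 23, against 5.08%. Atf4 read 9.88 to 10.19 in WT and 10.04 to 10.31 in Tsc1-/- (0.077, SE 0.091). Asns, the asparagine synthetase, read 5.21, 5.18, 5.64 and 6.03 in WT and 6.49, 5.81, 5.86, 6.00 and 5.78 in Tsc1-/- (0.47, SE 0.19, adjusted p = 0.218, limma), with WT replicate 4 above 4 of the 5 Tsc1-/- arrays. Psat1, an enzyme of serine synthesis, was the only gene of this list without overlap, at 7.49 to 8.09 in WT and 8.20 to 8.80 in Tsc1-/- (0.56, SE 0.14, adjusted p = 0.0759, limma). Sesn2, which restrains mTORC1 when leucine is scarce, differed by 0.39 (SE 0.14, adjusted p = 0.167, limma). Ddit4, a further restraint on mTORC1, differed by 0.62 (SE 0.22, adjusted p = 0.174, limma). Their genotypes overlapped, with Sesn2 at 6.47 to 6.73 in WT and 6.54 to 7.28 in Tsc1-/-. Ddit4 was at 8.94 to 9.996 and 9.485 to 10.43. Cebpb, the 1 negative gene at an unadjusted p under 0.05, differed by -0.40 (SE 0.15, adjusted p = 0.201, limma).

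The list of uncharged tRNA sensing, which also holds initiation factor genes and others, had 12 measured genes. Their median was 0.057, with 7 positive and 0 called by limma. At an unadjusted p under 0.05, 1 was higher, against 9.83% of all genes. Eif2ak4, the kinase that binds uncharged tRNA, read 6.32 to 6.52 in WT and 6.11 to 6.67 in Tsc1-/- (-0.057, SE 0.11). Eif2s3x, which encodes a subunit of an initiation factor, differed by 0.17 (SE 0.076). On the same list Eif2b1 differed by 0.15 and Eif2a by 0.13. Of 17 measured interferon gamma induced genes, the group that Wars is known to belong to, 14 were positive with a median of 0.16. Limma called 0 of the 17, and 4 were higher at an unadjusted p under 0.05, against 9.83% of all genes. Genotypes did not overlap, with Tsc1-/- higher, in 1 of the 17, against 5.08%. Cxcl10, a chemokine, differed by 0.55 (SE 0.17), and Gbp3, a guanylate-binding protein, by 0.22 (SE 0.085). Psmb9, an immunoproteasome subunit, was the only one of them without overlap, at 10.96 to 11.24 in WT and 11.29 to 11.35 in Tsc1-/- (0.20, SE 0.076, adjusted p = 0.211, limma).

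**Figure D5:**
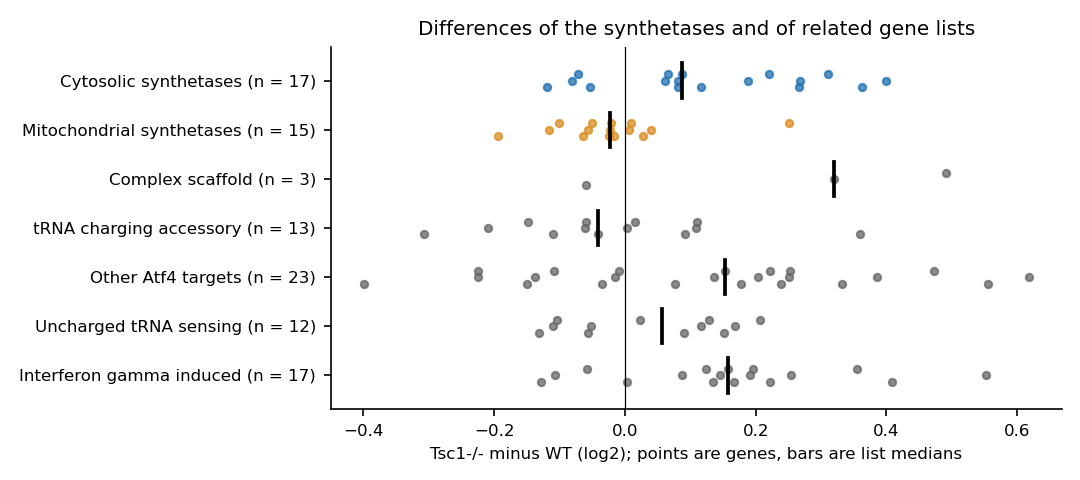
Differences, Tsc1-/- minus WT on the log2 scale, of the cytosolic (blue) and mitochondrial (orange) synthetase genes and of 5 related gene lists (grey), with a point per gene and a black bar at each list median. The medians are 0.087, -0.023 (0.020 after centring the arrays on their medians), 0.32, -0.041 (likewise above 0 after centring), 0.15, 0.057 and 0.16 from top to bottom, and no point passed limma's threshold.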

How the data were processed

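The authors deposited log2 expression values per probe set, per the submitters' processing notes a product of RMA and of Partek 6.5. RMA corrects background, quantile normalizes probes over arrays and summarises probe sets, and a shift common to the majority of genes is removed by it. Per the labels' protocols, 12 ng of RNA per sample was amplified. No source used here gives RMA's options. The number of arrays limits the precision.

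Of 45037 probe sets, 28898 had 1 gene in the platform annotation, 551 several (not used) and 15588 were unnamed. Symbols were updated through Entrez identifiers (28689 matched) with RefSeq GRCm38.p6. Mars is listed there as Mars1. Limma 3.58.1 in R 4.3.3 was fitted over all 17097 genes with genotype as the only term, without a filter on dim genes, two-sided, with Benjamini-Hochberg adjustment. Values of further probe sets come from one fit over all probe sets. Single genes were also permuted over the 126 splits of the arrays. The fit was tested on simulated data. Figures used Python 3.11.15.

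Genes given on every array were those with the smallest p in each compartment, the brightest and dimmest, and those whose probe sets disagreed in sign. From the related lists up to 3 with the smallest p were given, with Atf4, Asns and Eif2ak4 always, and Cebpb was added for its negative difference. The members, lists and tests were chosen with earlier results of these data known. Proteins were not analysed here. The alternatives, all planned, were other probe set rules, scalings, variance models, thresholds, a block, a covariate and each array left out.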

Additional observations from a re-analysis of the deposited data

Results flagged for a closer look

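Of 68 groups checked, each the 4 WT or 5 Tsc1-/- values of a synthetase gene or of a compartment's mean level, 3 had an array far from the rest, where chance gives about 1 in 20. Gars on WT replicate 4 read 9.39, with the next WT array at 9.24. Qars on WT replicate 4 read 10.45, with the next at 10.26. Iars on Tsc1-/- replicate 1 read 9.34, with the next at 8.81.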

How the results depend on the processing

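The number of synthetase genes called higher was 0 as reported. It was 3 (Gars, Rars and Wars) with dim genes left out, where 29 synthetase genes were kept. It was the same 3 with a variance trend and robust estimation, and at an adjusted p under 0.1 (3.09% of all genes higher). It was 2 (Gars and Wars) after centring the arrays on their medians, with array weights, and without WT replicate 4, and it ran from 0 to 2 when single arrays were left out. None was called lower in any setting run. Genes of any kind called higher were 166 of 17097 as reported and 543 of the 8799 kept with dim genes left out. They were 509 with the variance trend, 340 with array weights, 381 after centring and 58 after quantile normalization. Genes called lower were, in the same order, 53, 151, 171, 125, 57 and 32. With the replicate block and with the covariate limma called 0 of all genes in either direction, while an unadjusted p under 0.05 was met by 1303 and 1042 genes with a higher and 1051 and 689 with a lower mean. Leaving out WT replicates 1 to 4 in turn gave 1, 2, 70 and 297 called higher, and Tsc1-/- replicates 1 to 5 gave 142, 6, 41, 21 and 1. The cytosolic median stayed positive, at 0.070 to 0.13 without single arrays and 0.16 with the macrophage marker level as covariate. The mitochondrial median was 0.020 after centring, where the median of all genes was 0.037, and -0.040 to 0.0080 without single arrays.

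Of 32 genes, 14 (13 cytosolic and Iars2) kept their direction in every setting run. All 7 cytosolic genes with an unadjusted p under 0.05 are among them. Every setting reuses the same arrays, so a kept direction is no separate support. Wars2 was at 0 with the mean of its probe sets. In the other 17 the sign turned. The mean of all probe sets gave Farsb 0.029, Iars 0.056, Hars2 0.046 and Nars2 -0.069. Centring gave Aars2 0.020, Ears2 0.019, Rars2 0.021 and Vars2 0.026. Quantile normalization gave Cars2 -0.022 and Ears2 0.019. The covariate gave Lars -0.014, Aars2 0.072, Fars2 -0.053, Hars2 0.028, Nars2 -0.17, Rars2 0.017, Sars2 0.036, Tars2 -0.028 and Vars2 0.011. Without single arrays Farsa ran from -0.014 to 0.19, Farsb from -0.12 to 0.021, Aars2 from -0.050 to 0.010, Cars2 from -0.041 to 0.056, Ears2 from -0.090 to 0.026, Lars2 from -0.11 to 0.15, Mars2 from -0.31 to 0.058, Nars2 from -0.033 to 0.11, Pars2 from -0.12 to 0.021, Rars2 from -0.065 to 0.013, Tars2 from -0.042 to 0.066 and Vars2 from -0.058 to 0.031. The cause was not tested.

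With the replicate block, 0 synthetase genes were called by limma (with an unadjusted p under 0.05, 5 had a higher and 0 a lower mean), the medians were 0.070 and -0.017, and Cars2 (-0.0088), Lars2 (-0.012) and Vars2 (0.031) turned sign. Tsc1-/- replicate 5 has no partner and drops out of that fit. The medians and differences there equal those without that array, so the turned signs come from its loss and not from the block. A pairing of the arrays by number was not seen: same-numbered arrays had residual correlations of -0.098 to 0.093, and 3 of 8 arrays correlated best with their own number. With so few arrays this check cannot exclude a pairing of small effect.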
